A study of Mus musculus with 2 samples.

Results

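Hypertrophic chondrocytes were the 215 cells of mouse long bone periosteum, of 9169 cells kept, in which at least 20 UMIs of Col10a1 and no UMI of Ptprc were counted. Col10a1 encodes type X collagen, the collagen of the hypertrophic zone, and Ptprc encodes CD45, carried by blood cells. The cells were chosen by these counts, so Col10a1 and Ptprc are given as a description only. Library 1 held 82 of them among 6276 cells kept and library 2 held 133 among 2893. A UMI (unique molecular identifier) tags 1 captured transcript, and a cell was kept with at least 500 genes, at least 500 UMIs, and at most 10% of UMIs from mitochondrial genes.

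Chondrocytes of growing cartilage first divide in columns and lay down a matrix of type II collagen and aggrecan, then stop dividing, swell, and switch to type X collagen. Cells entering hypertrophy secrete Indian hedgehog, which acts in a loop with parathyroid hormone-related protein to set how fast the next cells follow. At the end of the program the cells let their matrix mineralize, cut it with collagenase, and signal to vessels and osteoclasts, and they die or change fate as bone replaces the cartilage.

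The study sought the identity and markers of stem cells in human periosteum and reported LRP1 and CD13 as such markers. The mouse libraries served to look at the same markers in another species. Both libraries, replicates 1 and 2, came from 1 condition with no treatment, periosteum peeled from the femurs and tibias of C57BL6 mice 4 weeks of age, labelled WT. Cells were freed with collagenase and sorted on CD45, CD31, Ter-119, and DAPI, and the 10x Chromium 3′ chemistry used reads the ends of transcripts. How many mice were behind each library is not given in the sources used here, so any p-value measures only the spread between 2 libraries.

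The deposited counts went against the WT label in 1 respect. Besides mouse genes, the feature list held the reporters EGFP, tdTomato, and tdTomato-WPRE, and some were counted in hypertrophic cells. In library 2, EGFP gave 4657 UMIs in hypertrophic cells and was found in 70 of 133 (52.6%, exact 95% interval 43.8 to 61.3), against 29 of 160 non-hypertrophic chondrocytes (18.1%), 3.62% of the other cells without Ptprc, and 0.642% of cells with Ptprc. In library 1, no EGFP UMI was found in any of 9932 barcodes. tdTomato gave 81 UMIs in 9 of 82 hypertrophic cells of library 1 and 504 UMIs in 52 of 133 of library 2. Its share of cells was 10.98% and 39.1%, against 23.1% and 48.8% in non-hypertrophic chondrocytes, 14.1% and 27.6% in other cells, and 18.9% and 27.3% in cells with Ptprc (all unthinned). Its level in library 1 was 81.8 CPM in hypertrophic cells, against 23.3, 13.3, and 17.7 in those classes in turn. tdTomato-WPRE gave 1 UMI in hypertrophic cells. Levels are therefore given for each library, while tests take both libraries as replicates, and the reporter rows were left out of the tests.

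Library 1 held 9932 barcodes with 100808649 UMIs and library 2 held 3659 with 33306452. The 2 libraries shared 8 barcodes, and none of these was a hypertrophic chondrocyte. Hypertrophic cells summed to 990722 UMIs in library 1 (median 8342.5 UMIs and 1315 genes per cell) and to 2120468 in library 2 (median 12225 UMIs and 2461 genes). They made up 2.49% (exact 95% interval 1.98 to 3.08) of the cells without Ptprc in library 1 and 6.29% (5.29 to 7.41) in library 2. These intervals, and all others below, cover counting error only. Levels are given in CPM, a gene's UMIs as a share of all UMIs of the summed cells, where 10000 CPM is 1% of the UMIs, and values are given for library 1 and then library 2.

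Another pair of classes was set beside them. Non-hypertrophic chondrocytes had at least 10 UMIs of Col2a1, at least 2 of the genes Col9a1, Col9a3, Acan, Cnmd, and Matn3 at 2 UMIs or more, fewer than 20 UMIs of Col10a1, and no Ptprc. Library 1 held 26 of these cells and library 2 held 160. The other cells without Ptprc, 3188 and 1821, were a mixture in which erythroid markers alone took 114235 and 30285 CPM. Every cell that met the rule for chondrocytes had been taken out of them, so cartilage genes stand higher against them largely by the rule. Calls of such genes against other cells are descriptions and no support. The rule for non-hypertrophic chondrocytes favors deep cells (median UMIs per cell 31883 and 22742.5, median genes 4894.5 and 4137.5), so shares of cells with a UMI of Ihh, Tinagl1, Spp1, and Ffar4 are also given after each cell was thinned to 5000 UMIs. Shares for EGFP, tdTomato, and Malat1 are unthinned. Thinning left out 26 of 82 and 27 of 133 hypertrophic cells as too shallow, against 0 of 26 and 5 of 160 non-hypertrophic chondrocytes. In alternative settings, cells with at least 2 UMIs of 2 or more blood, vessel, or muscle markers (foreign markers), or deep cells, with over 3 times the median UMIs of their class and library, were left out of every class.

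The genes on which the report turns lie, on mm10 (GRCm38), at chr10:34389981-34397085 on the plus strand (Col10a1), chr5:104435118-104441050 plus (Spp1), chr9:7272514-7283331 plus (Mmp13), and chr1:74945315-74951672 minus (Ihh). The 250 bases before the RefSeq start of each gene are shown because the first chose the class and the other 3 are read across its cells below. Sequences are those of RefSeq on GRCm38.p6, read 5′ to 3′ on the gene's own strand, with distances counted from the RefSeq start, which for Spp1 lies 7 bases before the GENCODE start given above, and span chr10:34389731-34389980 (Col10a1), chr5:104434861-104435110 (Spp1), chr9:7272264-7272513 (Mmp13), and chr1:74951673-74951922 (Ihh). Capitals mark matches, on either strand, to the letters TGTGGT for RUNX factors, to the letters TGANTCA for AP-1, and to TATAAA for the TATA box. A match on the other strand of the first of these reads ACCACA.
Col10a1: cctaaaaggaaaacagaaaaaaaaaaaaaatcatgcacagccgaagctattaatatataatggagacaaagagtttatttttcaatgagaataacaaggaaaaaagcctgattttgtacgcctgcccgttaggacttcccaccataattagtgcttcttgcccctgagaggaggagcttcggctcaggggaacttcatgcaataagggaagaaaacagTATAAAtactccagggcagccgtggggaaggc
Spp1: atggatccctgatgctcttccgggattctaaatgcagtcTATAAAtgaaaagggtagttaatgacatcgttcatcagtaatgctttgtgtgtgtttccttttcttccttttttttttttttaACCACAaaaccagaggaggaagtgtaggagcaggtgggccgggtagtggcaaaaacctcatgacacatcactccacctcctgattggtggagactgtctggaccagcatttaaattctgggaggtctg
Mmp13: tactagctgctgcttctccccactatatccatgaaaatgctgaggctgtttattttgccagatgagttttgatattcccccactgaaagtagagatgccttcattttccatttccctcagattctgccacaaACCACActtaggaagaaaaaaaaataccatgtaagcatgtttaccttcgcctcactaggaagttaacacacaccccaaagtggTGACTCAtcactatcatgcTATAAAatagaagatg
Ihh: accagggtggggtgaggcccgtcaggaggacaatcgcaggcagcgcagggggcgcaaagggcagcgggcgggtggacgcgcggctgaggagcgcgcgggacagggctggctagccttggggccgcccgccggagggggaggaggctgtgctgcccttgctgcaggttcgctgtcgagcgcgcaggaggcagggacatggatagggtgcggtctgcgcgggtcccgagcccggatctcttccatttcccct
Col10a1 has a TATA box starting 32 bases before its start. Spp1 has a RUNX match at 128 and a TATA box at 211 bases before the start, and Mmp13 has a RUNX match at 118, an AP-1 match at 35, and a TATA box at 16 bases before it. The Ihh window holds none of the 3. Among 32851 promoters of this length, 14.0% hold the RUNX letters, 6.75% the AP-1 letters, and 12.4% the TATA letters, so single matches are common. A match describes letters only and was not tested as a site.

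The genes of the rule are given as a description only, since they chose the classes. Col10a1 took 52482 and 23981 CPM in hypertrophic cells of libraries 1 and 2, with medians of 477.5 and 321 UMIs per cell, far above the limit of 20. Only 2 and 10 hypertrophic cells had 20 to 30 UMIs of Col10a1, and 5 and 11 cells without Ptprc had 10 to 19 and fell just outside. Col2a1, type II collagen, took 21028 and 16343 CPM, against 47293 and 34397 in non-hypertrophic chondrocytes. The aggrecan gene Acan took 3507 and 2462 CPM, against 5174 and 2261, and Cnmd, chondromodulin, took 519 and 415, against 3562 and 1678. At least 1 UMI of Col10a1 was also found in 12.6% and 5.44% of the other cells and in 10.4% and 4.49% of cells with Ptprc, and shares of cells are read below against this background.

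The second marker of the label, Ihh (Indian hedgehog), was not used by the rule. It took 147 and 222 CPM in hypertrophic cells, 198 and 68.4 in non-hypertrophic chondrocytes, and 0.290 and 1.12 in the other cells. Ihh was higher in hypertrophic cells than in other cells by 8.19 ± 0.86 on the log2 scale (SE, 2 libraries, edgeR adjusted p = 0.0116). Against non-hypertrophic chondrocytes the 2 libraries went opposite ways, with a ratio of 0.746 (exact 95% interval 0.590 to 0.942) in library 1 and 3.24 (2.78 to 3.78) in library 2, and the fitted difference of 0.38 did not pass (adjusted p = 0.805). Library 1 rests on few cells, since Ihh was found in 10 of 82 and its level was 27.1 with deep cells left out, and in 4 alternatives the fitted difference turned, to between −0.45 and −0.19. An Ihh UMI was found in 12.2% and 36.1% of hypertrophic cells (9.89% and 28.9% after thinning), in 42.3% and 21.2% of non-hypertrophic chondrocytes (32.2% and 12.4%), and in 0.134% and 0% of cells with Ptprc, where the upper exact 95% limit is 0.472%. Ihh thus marked both chondrocyte classes, and most cells with high Col10a1 had no UMI of it.

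Across all genes outside the rule, hypertrophic cells were compared with each class by summing UMIs per library and class. These genes were counted in the same cells as the rule genes and vary with them. Against non-hypertrophic chondrocytes, 1 of 11503 genes tested was higher (0.00869%) and 0 were lower (0%) at an adjusted p under 0.05 by edgeR's quasi-likelihood test. At an unadjusted p under 0.05, 796 genes were higher and 832 lower, and DESeq2 called 187 higher and 122 lower. With library as a block no gene was called. The median log2 difference over all genes tested was −0.00. Both hypertrophic libraries lay above both non-hypertrophic values for 26.5% of genes and below both for 22.2%, and lists are read below against these shares.

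The gene that passed was Tinagl1 (chr4:130164454-130175122, minus strand), which encodes a secreted protein of the basement membrane. It took 111 and 131 CPM in hypertrophic cells, 2.58 and 2.06 in non-hypertrophic chondrocytes, and 15.4 and 14.5 in other cells, from 110 and 278 UMIs against 2 and 8. The ratio was 43.0 in library 1 (exact 95% interval 11.6 to 359) and 63.6 in library 2 (31.9 to 149). The difference was 5.67 ± 0.44 on the log2 scale (edgeR adjusted p = 0.0356). With library as a block the adjusted p was 0.0530, and over all alternatives with a test it ranged from 2.05e-14 to 0.119. A Tinagl1 UMI was found in 39.0% and 53.4% of hypertrophic cells (35.9% and 38.9% after thinning), but also in 12.9% and 6.68% of cells with Ptprc.

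**Figure D1:**
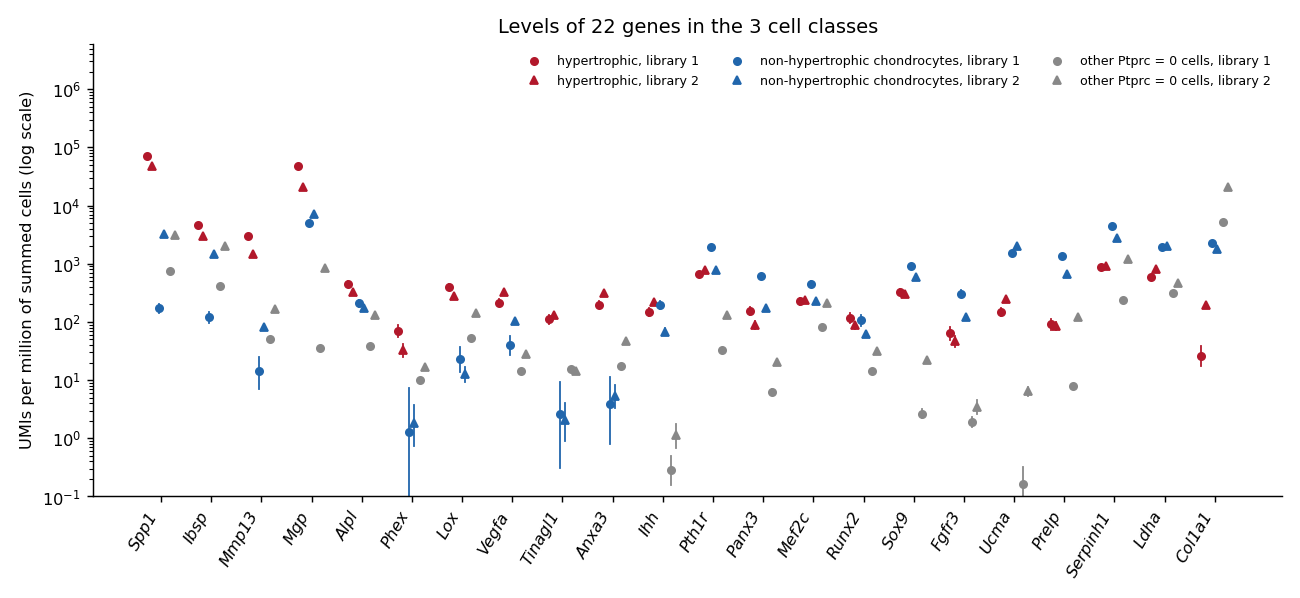
Levels of 22 genes in CPM (log axis) in the summed cells of each class, with circles for library 1, triangles for library 2, and bars for exact 95% Poisson intervals. Spp1 lies at 71685 and 48759 in hypertrophic cells (red) and at 171 and 3240 in non-hypertrophic chondrocytes (blue), whereas the Ihh values of the 2 chondrocyte classes overlap.

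By role, genes of mineralizing matrix come first. Spp1, which encodes osteopontin, a phosphoprotein that binds mineral and cells, took 71685 and 48759 CPM in hypertrophic cells, 171 and 3240 in non-hypertrophic chondrocytes, and 741 and 3172 in other cells. The ratio to non-hypertrophic chondrocytes was 420 (exact 95% interval 354 to 503) in library 1 and 15 (14.8 to 15.3) in library 2, and the difference of 5.11 ± 1.49 on the log2 scale did not pass (edgeR adjusted p = 0.232). The spread between libraries lay mostly in the non-hypertrophic cells. In library 2 most Spp1 UMIs of that class came from a few cells, with up to 944 per 10000 UMIs, and many cells had none. A Spp1 UMI was found in 96.3% and 94.0% of hypertrophic cells (95.05% and 90.8% after thinning), and in 25% and 18% of cells with Ptprc (13.0% and 11.8%).

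Ibsp, bone sialoprotein, took 4652 and 2972 CPM in hypertrophic cells and 120 and 1482 in non-hypertrophic chondrocytes, a ratio of 38.7 in library 1 and 2.01 in library 2. In other cells it took 412 and 1985, and that difference of 1.92 on the log2 scale did not pass (edgeR adjusted p = 0.311). With foreign markers left out, Ibsp turned in library 2, at 6557 and 2996 against 2052 and 4253 in other cells. Mgp, the matrix Gla protein that inhibits calcification, took 48330 and 20655, against 4984 and 7136 in non-hypertrophic chondrocytes and 36.1 and 829 in other cells. Mgp was higher in hypertrophic than in other cells by 6.65 on the log2 scale (edgeR adjusted p = 0.0496). Without cells carrying foreign markers, Mgp took 71317 and 22441, against 815 and 1809 in other cells. Alpl, the tissue-nonspecific alkaline phosphatase, took 453 and 333, against 208 and 172. Both hypertrophic libraries lay above both non-hypertrophic libraries for each of these genes.

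Of 17 mineralization genes tested, 11 lay above both non-hypertrophic values and 2 below, and their median log2 difference was 1.08. None was called against non-hypertrophic chondrocytes. Phex, an endopeptidase of phosphate balance, took 70.7 and 32.6 CPM, against 1.29 and 1.81 (log2 difference 4.96 ± 0.70, edgeR adjusted p = 0.0952). Dmp1, a dentin matrix protein of osteocytes, took 354 and 31.2, against 1.29 and 0.774, and its hypertrophic values differed more than 10-fold between libraries. With foreign markers left out, both lay below other cells in library 2. Phex then took 108 and 34.0, against 67.0 and 43.7 in other cells, and Dmp1 took 623 and 38.1, against 407 and 133. Against other cells, where 3.56% of all genes tested were called higher and 3.56% lower, 2 of the 17 were higher and none lower, Mgp and Enpp1, which makes the mineral inhibitor pyrophosphate (139 and 55.3 CPM, against 4.41 and 17.4, adjusted p = 0.0474).

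Proteases came next. Mmp13, the collagenase that cuts type II collagen, took 3049 and 1455 CPM in hypertrophic cells, 14.2 and 80.8 in non-hypertrophic chondrocytes, and 51.7 and 168 in other cells. The ratio to non-hypertrophic chondrocytes was 215 (exact 95% interval 120 to 430) in library 1 and 18.0 (16.0 to 20.3) in library 2 (log2 difference 5.55 ± 1.07, edgeR adjusted p = 0.149). Against other cells Mmp13 was higher by 4.62 on the log2 scale (adjusted p = 0.0450). That call was lost when only stromal cells were kept among the other cells (adjusted p = 0.0877), and the adjusted p ranged from 1.86e-05 to 0.147 over the alternatives.

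Mmp9, a gelatinase that osteoclasts also make, took 146 and 64.8 CPM in hypertrophic cells, 3.88 and 0.774 in non-hypertrophic chondrocytes, and 28.3 and 110 in other cells. In library 2 the hypertrophic value thus lay below that of other cells. Most of the sum came from 1 cell in each library (91 of 145 and 84 of 137 UMIs), and a UMI was found in 11 and 8 cells. With foreign markers left out, Mmp9 took 37.8 and 79.0, against 294 and 150 in other cells, and so lay below in both. When Malat1-poor cells (defined below) were left out, Mmp9 took 226 and 8.31 in hypertrophic cells. Of 14 proteases and inhibitors tested, 7 lay above and 3 below both non-hypertrophic values, with a median of 0.87, and Mmp2, a gelatinase of fibroblasts, was among those below (13.1 and 20.8, against 101 and 83.4).

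Signals to vessels and osteoclasts stood mostly above. Of 13 tested, 9 lay above both non-hypertrophic values and 0 below, with a median of 1.78, though none was called. Vegfa, the main growth factor of vessels, took 213 and 330 CPM, against 40.0 and 104 in non-hypertrophic chondrocytes and 14.3 and 27.9 in other cells, and was higher than in other cells by 3.78 on the log2 scale (edgeR adjusted p = 0.0197). Without cells carrying foreign markers, Vegfa took 148 and 335, against 76.6 and 53.2 in other cells. Tnfsf11, which encodes the osteoclast factor RANKL, took 16.2 and 16.1, against 0 and 1.55, but in library 1 its 16 UMIs came from 4 cells, 13 of them from 1 cell, and the value was 3.60 with foreign markers left out and 4.78 with deep cells left out. Angptl4, a secreted lipase inhibitor, took 54.5 and 99.7, against 3.88 and 12.4, and was higher than in other cells by 3.22 (adjusted p = 0.0285). With foreign markers left out, library 1 turned, at 39.6 against 50.2 in other cells, and library 2 did not. Epas1, the hypoxia factor HIF-2α, took 45.4 and 27.4, against 3.88 and 5.68, and was also called against other cells (5.45 and 10.3, adjusted p = 0.0493). With foreign markers left out, Epas1 turned, at 52.2 and 28.3 in hypertrophic and 63.8 and 28.5 in other cells. Hif1a, its relative, lay at 115 and 144, against 133 and 228 in non-hypertrophic chondrocytes. With equal weight per cell the list gave 4 members above and 2 below, where all genes gave 12.9% and 18.5%.

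**Figure D2:**
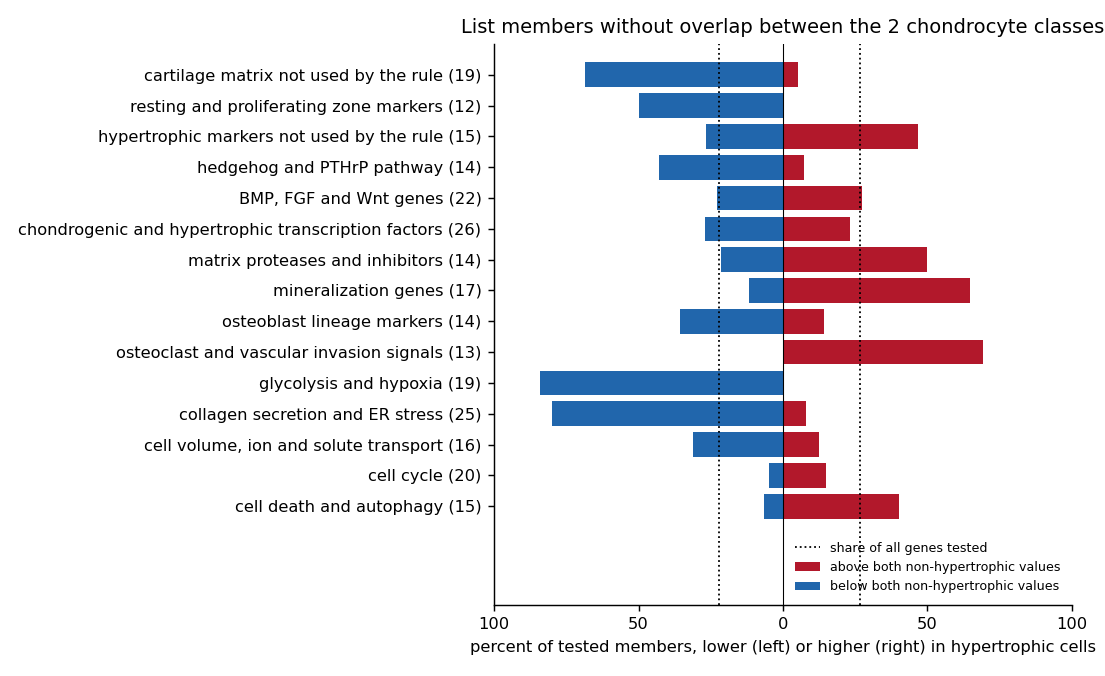
Share of the tested members of each list (number in brackets) whose values in both hypertrophic libraries lay above (red, to the right) or below (blue, to the left) both non-hypertrophic values, in percent, with dotted lines for all genes tested at 26.5% and 22.2%. Glycolysis and collagen secretion reach far to the left with 16 of 19 and 20 of 25 members below, and vascular and osteoclast signals to the right with 9 of 13 above.

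In the hedgehog and PTHrP pathway, the PTHrP side was read first. Pthlh, the gene of PTHrP, had no UMI in hypertrophic cells of either library and 0 and 19.4 CPM in non-hypertrophic chondrocytes. Its receptor Pth1r took 654 and 784 in hypertrophic cells, 1957 and 778 in non-hypertrophic chondrocytes, and 32.4 and 131 in other cells, so it differed between the chondrocyte classes in library 1 only. Against other cells Pth1r was higher by 3.31 on the log2 scale (edgeR adjusted p = 0.0419), a call lost against stromal cells alone (adjusted p = 0.108, range over alternatives 0.000187 to 0.509). With foreign markers left out, library 1 turned, at 167 against 254 in other cells.

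On the hedgehog side, Gli1 and Hhip had few UMIs. Gli1, a transcription factor induced by the signal, took 0 and 0.473 CPM in hypertrophic cells, against 12.9 and 9.03 in non-hypertrophic chondrocytes. Hhip, which binds and restrains hedgehog, took 0 and 1.42, against 27.1 and 42.8, which is at least 8.96-fold lower in library 1, with 3 UMIs per library as the floor, and a ratio of 0.0331 in library 2 (3 against 166 UMIs, exact 95% interval 0.00676 to 0.0984). Ptch1, the hedgehog receptor and itself a target, took 38.4 and 64.3, against 115 and 110. Of 14 genes tested, 1 lay above and 6 below both non-hypertrophic values (median −1.04), and none was called. Against other cells 3 were higher and none lower, Ihh, Pth1r, and Ptch1, where 3.56% of all genes were called each way.

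Other markers of the hypertrophic program were mixed. Of 15 outside the rule, 7 lay above and 4 below both non-hypertrophic values, with a median of 0.38. Panx3, a channel of prehypertrophic cells, took 152 and 88.4 CPM, against 606 and 176. Mef2c, a factor that drives Col10a1, took 225 and 241, against 456 and 231, and 80.4 and 208 in other cells, where the difference did not pass (edgeR adjusted p = 0.304). With foreign markers left out, Mef2c turned, at 88.2 and 219 against 297 and 319 in other cells. With deep cells left out it also turned, at 73.3 and 194 against 114 and 199. Against other cells, where 3.56% of all genes were called higher, 5 of the 15 were called, all higher. These were Ihh, Pth1r, Mmp13, Vegfa, and Scin, an actin-severing protein (29.3 and 19.4, against 0.745 and 1.83). Scin lay below both non-hypertrophic values, with a log2 difference of −1.64 (edgeR adjusted p = 0.312).

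Transcription factors held members on both sides. Sox9, the master factor of cartilage, took 328 and 304 CPM, against 931 and 600 in non-hypertrophic chondrocytes. In library 1 the Sox9 level was 88.2 with foreign markers left out and 90.8 with deep cells left out. Its partner Sox5 took 17.2 and 19.4, against 111 and 97.6. Runx2, which drives hypertrophy and bone formation, took 118 and 87.9, against 106 and 61.9, so the classes overlapped, and with foreign markers left out it stood at 121 and 85.9, against 114 and 84.9 in other cells. Its relative Runx1 took 105 and 150, against 37.5 and 56.8. Of 26 tested, 6 lay above and 7 below (median −0.26), close to the shares of all genes. Against other cells, where 3.56% of all genes were called higher, 6 were higher, Sox9, Runx2, Dlx5, Foxa2, Foxa3, and Epas1. Foxa2 and Foxa3, forkhead factors of the hypertrophic program, took 8.08 and 16.1 and 10.1 and 44.9, against at most 0.295 in either library of other cells. From non-hypertrophic chondrocytes Foxa2 differed by 1.40 and Foxa3 by −1.28 on the log2 scale. Neither passed in that comparison (edgeR adjusted p = 0.449 and 0.466).

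Growth factors of the BMP and Wnt families held members at both ends. Bmp6, a BMP ligand, took 51.5 and 81.8 CPM, against 9.04 and 4.13 in non-hypertrophic chondrocytes (log2 difference 3.34, edgeR adjusted p = 0.112), and was higher than in other cells by 4.50 (adjusted p = 0.0116). Without cells carrying foreign markers, Bmp6 took 61.2 and 85.9, against 28.7 and 8.70 in other cells. Bmp8a took 68.6 and 50.6, against 3.88 and 13.9. Frzb, a secreted Wnt antagonist, took 287 and 195, against 46.5 and 35.4, and was higher than in other cells by 6.26 (adjusted p = 0.0116). Fgfr3, the receptor that slows chondrocyte division, went the other way with 63.6 and 46.3, against 307 and 120, and its library 1 value was 11.2 with deep cells left out. Of 22 tested, 6 lay above and 5 below both non-hypertrophic values (median −0.08). Against other cells 7 were called higher, where 3.56% of all genes were.

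The matrix of young cartilage stood lower. Of 19 cartilage matrix genes outside the rule, 13 lay below both non-hypertrophic values and 1 above, and the median log2 difference was −1.35, with no call. Ucma, a small secreted protein of cartilage, took 149 and 248 CPM, against 1533 and 1987. In library 1 it was found in 5 of 82 cells, 1 of which held 71 UMIs, and its level was 1.80 with foreign markers left out and 3.19 with deep cells left out. Prelp, a leucine-rich proteoglycan of the resting zone list, took 90.9 and 85.6, against 1345 and 667. Prg4, lubricin of the joint surface, took 0 and 38.3, against 0 and 6484, so its non-hypertrophic value came from library 2 alone. The member above was Matn1, cartilage matrix protein, with 1768 and 1019, against 942 and 405. Against other cells 11 of the 19 were higher and none lower, where 3.56% of all genes were called each way. The rule had taken chondrocytes out of the other cells, so this count was largely fixed in advance. Of 12 resting and proliferating zone markers, 6 lay below and 0 above the non-hypertrophic values (median −1.37).

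Glycolysis and collagen secretion stood lower as well. Of 19 glycolysis and hypoxia genes tested, 16 lay below both non-hypertrophic values and 0 above (median −1.45). Ldha, lactate dehydrogenase, took 598 and 807 CPM, against 1958 and 1987, and Eno1, enolase, took 183 and 294, against 869 and 984. Of 25 genes of collagen secretion and ER stress, 20 lay below and 2 above (median −1.15). Serpinh1, the collagen chaperone HSP47, took 877 and 906, against 4469 and 2796, and Plod2, a lysyl hydroxylase, took 151 and 199, against 916 and 636. Lox, lysyl oxidase, which cross-links collagen outside the cell, was 1 of the 2 above, with 406 and 277, against 23.3 and 12.6 (log2 difference 4.27, edgeR adjusted p = 0.112). With foreign markers left out, Lox lay below other cells in library 2, at 502 and 257 against 404 and 330. No member of either list was called against non-hypertrophic chondrocytes. Against other cells the medians stood the other way, at 0.95 for glycolysis and 0.88 for secretion genes, where all genes gave −0.10. Of the 19 glycolysis genes 3 were called higher, among them Slc2a1, a glucose transporter, and Aldoc, an aldolase. None of the 25 secretion genes was called, where 3.56% of all genes were called higher. Serpinh1 took 242 and 1210 in other cells, and 1192 and 2469 when only stromal cells were kept among them. With foreign markers left out, Ldha turned in library 1, at 400 against 431 in other cells, and did not in library 2. With Malat1-poor cells left out of every class, 16 of the glycolysis genes and 17 of the secretion genes lay below both non-hypertrophic values. All genes then gave 16.2% below and 37.5% above.

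Cell cycle genes could not be read alike in the 2 libraries. Mki67, a protein of dividing cells, took 153 CPM in library 1 and 1.89 in library 2, and Top2a, a topoisomerase of division, took 74.7 and 0.473. In library 1 the hypertrophic sum also held erythroid markers at 30402 CPM, 88.0% of them in 3 cells, against 161 in library 2, and the part of these cells in the Mki67 value was not tested. Cdkn1a, the cell cycle inhibitor p21, took 995 and 2999, against 258 and 677 in non-hypertrophic chondrocytes and 42.6 and 220 in other cells, and was higher than in other cells by 4.00 on the log2 scale (edgeR adjusted p = 0.0449). Of 20 cell cycle genes, 3 lay above and 1 below the non-hypertrophic values (median 0.64). With foreign markers left out the counts were 3 and 7, where all genes gave 18.3% and 21.5%. With equal weight per cell they were 5 and 5, where all genes gave 12.9% and 18.5%. Against other cells the median of the 20 cell cycle genes was −2.91, where all genes gave −0.10. Among them 2 were called higher, Cdkn1a and Cdkn1c, another inhibitor, and 1 lower, Mcm5, a replication factor. Of all genes 3.56% were called each way. Cdkn1c differed from non-hypertrophic chondrocytes by −1.13 on the log2 scale (edgeR adjusted p = 0.565). Among 15 genes of cell death and autophagy, 6 lay above and 1 below (median 0.54), led by Map1lc3b, a protein of autophagosomes, with 1924 and 1798, against 253 and 393, and called against other cells (log2 difference 2.43, adjusted p = 0.0282). Of these 15, 3 lay above and 1 below the non-hypertrophic values with foreign markers left out, and 4 and 4 with equal weight per cell. The counts were 10 and 1 with Malat1-poor cells left out, where all genes gave 37.5% and 16.2%.

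Osteoblast genes were read against the mixture of other cells. Col1a1, type I collagen, took 26.2 and 197 CPM in hypertrophic cells, 2241 and 1763 in non-hypertrophic chondrocytes, and 5252 and 20647 in other cells, and was lower than in other cells by −6.86 on the log2 scale (edgeR adjusted p = 0.0225). Bglap, osteocalcin, took 33.3 and 54.4, against 1062 and 2411 in other cells (−5.21, adjusted p = 0.0181), though reads of Bglap and its near copies Bglap2 and Bglap3 can be shared. Of 14 osteoblast markers, 7 were called lower than in other cells and none higher, where 3.56% of all genes were called each way, and the median was −4.74. Both hypertrophic values lay below both of other cells for 10 of the 14 and above both for 2. Dmp1, also on this list, took 354 and 31.2, against 30.5 and 37.5 in other cells, and so stood higher in library 1 only. Spp1, Ibsp, and Mgp were thus counted at high levels in sums with little type I collagen or osteocalcin.

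Against the other cells without Ptprc, 409 genes were higher (3.56% of genes tested) and 409 lower (3.56%) by edgeR, and the median difference of all genes was −0.10. With library as a block the counts were 772 and 880, and all 818 genes of the unblocked test were among them. Keeping only stromal cells among the other cells gave 185 and 153. The 10 genes with the largest difference among those higher were Matn1, Il17b, Dnajc22, Ffar4, Hapln1, Klk10, Syt8, Col9a2, Serpina1d, and Wfdc2. Matn1 led with 1768 and 1019 CPM, against 0.393 and 0.414 (log2 difference 11.87, edgeR adjusted p = 0.00704). Since the rule had taken chondrocytes out of the other cells, the place of cartilage genes in this ranking was largely fixed in advance. Hapln1, a link protein of aggrecan, took 5446 and 4229, against 1.72 and 11, and Col9a2, a type IX collagen chain, took 2059 and 1278, against 1.26 and 5.26. Both also stood high in non-hypertrophic chondrocytes, at 7878 and 4548 and at 5123 and 3107. Il17b, a cytokine of the IL-17 family, took 324 and 225, against 0.0621 and 0.295 in other cells and 875 and 392 in non-hypertrophic chondrocytes. Syt8, a synaptotagmin, took 35.3 and 36.9, against 227 and 200 in non-hypertrophic chondrocytes, so both genes lay below that class. Dnajc22, a chaperone of the DNAJ family, differed from non-hypertrophic chondrocytes by −0.24 on the log2 scale and had no UMI in other cells, so 13 and 46 UMIs in hypertrophic cells were at least 211-fold and 123-fold higher with 3 UMIs per library as the floor.

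Genes that set hypertrophic cells apart in both libraries were also ranked by the smaller of the 2 ratios to non-hypertrophic chondrocytes, among genes at 100 CPM or more in both hypertrophic sums. This is a description with no test. The first 10 were Ffar4, Anxa3, Tinagl1, Tcim, Ptgs2, Steap4, Aldh1a3, Jam2, Ddit4l, and Mmp13. Ffar4, a receptor for long-chain fatty acids, took 202 and 257 CPM and had no UMI in non-hypertrophic chondrocytes, so it was at least 52.1-fold and 332-fold higher with the same floor. A Ffar4 UMI was found in 56.1% and 69.9% of hypertrophic cells (49.0% and 62.5% after thinning) and in 0.336% and 0.513% of cells with Ptprc. Anxa3, a calcium-dependent membrane binder, took 198 and 309, against 3.88 and 5.42 (log2 difference 5.60, edgeR adjusted p = 0.0808). Ptgs2, cyclooxygenase 2, took 163 and 262, against 0 and 9.29. Ddit4l, an inhibitor of mTOR signaling, took 613 and 1103, against 22 and 60.1. At the other end stood Pcolce, which enhances procollagen cleavage, with 12.1 and 28.4, against 137 and 358, then Col1a1, Ucma, Prelp, Vit, Fmod, Clec11a, Col1a2, Lsp1, and Slc16a3.

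Hypertrophic cells differed among themselves in Spp1. Per 10000 UMIs of a cell, Spp1 ran from 0 through a median of 942 to 2685 in library 1 and from 0 through 468 to 4175 in library 2, and 3 and 8 cells had none. The cells were divided by Spp1 into those under 10, from 10 to 100, and at or over 100 per 1000 UMIs, which held 5, 39, and 38 cells in library 1 and 26, 76, and 31 in library 2. These are ranges of a continuous value and not types, since 62 and 58 cells had 50 to 200 per 1000 and 6 and 23 had 5 to 20. The lowest range of library 1 rests on 5 cells. The bounds were set after the values were seen, and the values that follow are descriptions.

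**Figure D3:**
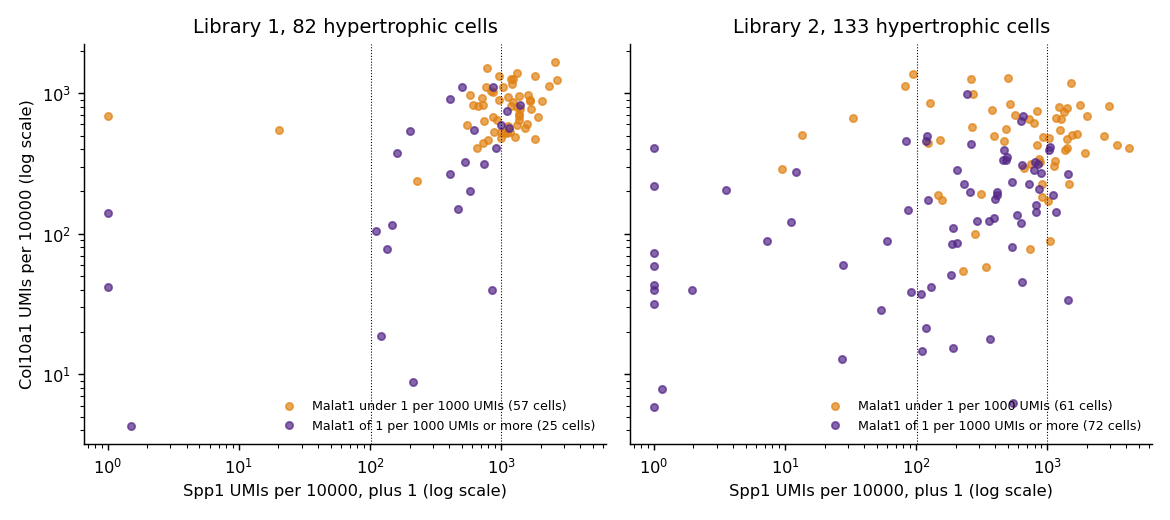
Each point is 1 hypertrophic cell, placed by its UMIs of Spp1 (plus 1) and of Col10a1 per 10000 UMIs (log axes), in orange where Malat1 was under 1 per 1000 UMIs and in purple otherwise. Vertical dotted lines mark 10 and 100 Spp1 UMIs per 1000, and most orange points lie to the upper right.

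Ihh, Pth1r, Panx3, Ucma, and Col2a1 had their highest sums where Spp1 was low. Ihh took 610, 103, and 0 CPM in the low, middle, and high Spp1 range of library 1 and 401, 195, and 27.2 in library 2. Pth1r took 3591, 171, and 67.8 in library 1 and 2068, 408, and 90.8 in library 2. Panx3 and Ucma had the same order, with Ucma at 978, 3.76, and 0 and at 772.5, 84.1, and 6.05. Col2a1 took 60744, 12724, and 16139 and then 34077, 10129, and 10536. In library 1 the low range is mostly 3 deep cells, with 34081, 48319, and 60499 UMIs among its 5 cells. With deep cells left out of the whole class, its level in library 1 was 27.1 CPM for Ihh, 156 for Pth1r, 23.9 for Panx3, and 3.19 for Ucma.

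Mmp13, Mgp, Ibsp, and Dmp1 had their highest sums where Spp1 was high. Mmp13 took 0, 3276, and 4125 CPM in library 1 and 33.3, 1603, and 3198 in library 2. Mgp took 1434, 39777, and 85589 and then 3864, 21585, and 44311, and Ibsp took 2318, 3967, and 6949 and then 1905, 3114, and 4136. Dmp1 took 0, 207, and 778 in library 1 and 0, 28.0, and 93.8 in library 2. Vegfa was highest in the middle, at 26.8, 339, and 87.2 in library 1 and at 159, 460, and 112 in library 2. Mmp13, Mgp, Ibsp, and Dmp1 had the same order in both libraries, and Vegfa had its highest value in the middle range of both. The ranges also differed in Malat1, with 2, 21, and 34 Malat1-poor cells in library 1 and 5, 31, and 25 in library 2, and the part of this in the order was not tested.

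**Figure D4:**
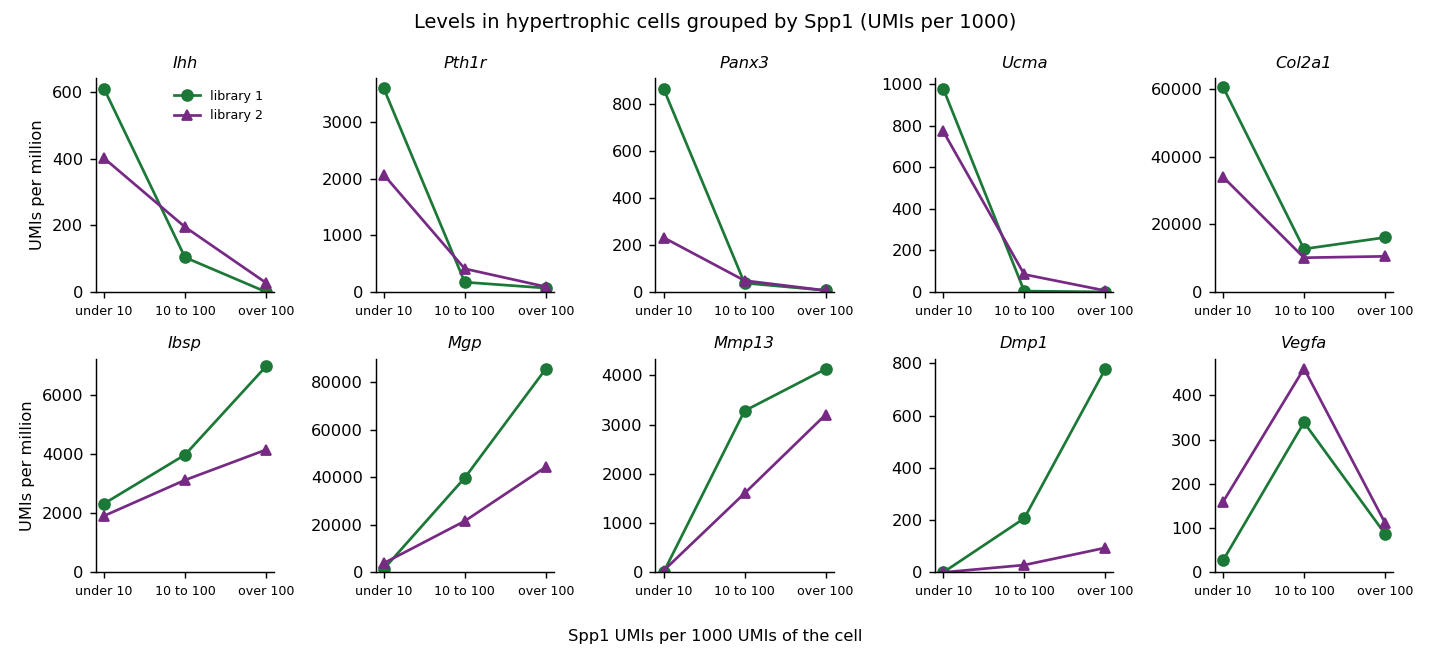
Summed levels of 10 genes in CPM (linear axes from 0) in hypertrophic cells with under 10, 10 to 100, and at least 100 Spp1 UMIs per 1000, with green circles for library 1 and purple triangles for library 2. Ihh, Pth1r, Panx3, and Ucma are highest at the left, Ibsp, Mgp, Mmp13, and Dmp1 at the right, and Vegfa in the middle.

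A large part of the class was poor in Malat1, a long noncoding RNA kept in the nucleus and found in nearly all cell types. Under 1 Malat1 UMI per 1000 was counted in 57 of 82 hypertrophic cells in library 1 (69.5%, exact 95% interval 58.4 to 79.2) and in 61 of 133 in library 2 (45.9%, 37.2 to 54.7). The share was 15.4% and 5.63% in non-hypertrophic chondrocytes, 13.0% and 20.8% in other cells, and 3.56% and 5.26% in cells with Ptprc. Only 4 and 8 hypertrophic cells had 0.5 to 2 Malat1 UMIs per 1000, so the limit of 1 divided few cells close to it. The limit was set after the values were seen.

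**Figure D5:**
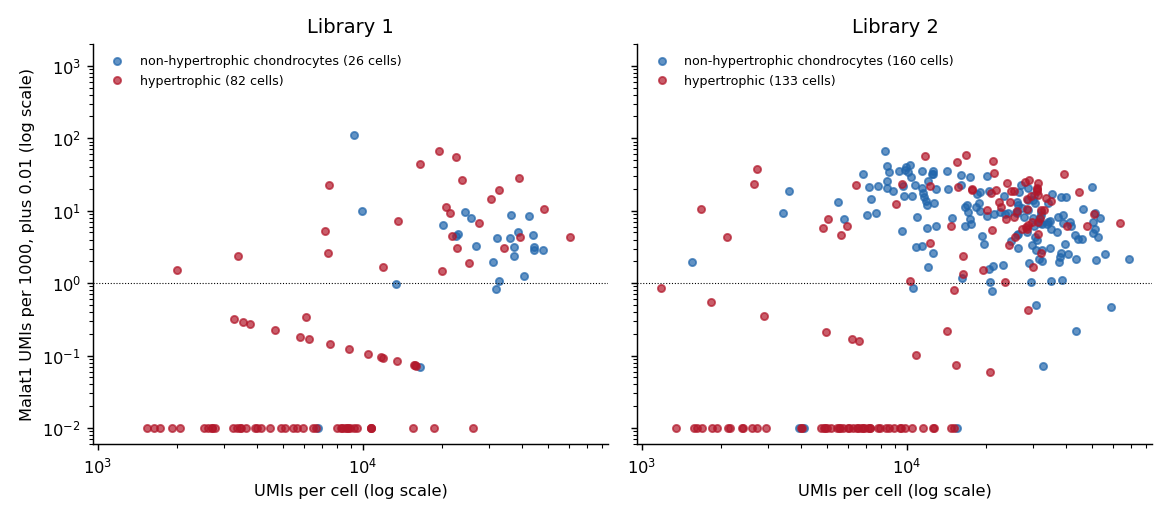
Malat1 UMIs per 1000 (plus 0.01, log axis) against UMIs per cell (log axis) for hypertrophic cells (red) and non-hypertrophic chondrocytes (blue) of each library, with a dotted line at 1 per 1000. Cells with no Malat1 UMI lie at the bottom, 57 of 82 and 61 of 133 red points lie under the line, and most of them have under 10000 UMIs.

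Malat1-poor hypertrophic cells were shallower. Their median UMI count was 5974 and 6198, against 21816 and 24492 in the rest of the class, and their median number of genes was 1073 and 1236, against 4169 and 4615. Their Col10a1 took 85501 and 51241 CPM, against 28977 and 16937, and their Spp1 took 120928 and 97032, against 36630 and 36267. Sox9, by contrast, took 0 and 46.3 in Malat1-poor cells, against 561 and 368, and the early response gene Fos took 7.28 and 146, against 2210 and 3332. The level of Spp1 in the cells with Malat1 still lay above that of non-hypertrophic chondrocytes with Malat1, which took 186 and 3432, and Mmp13 lay at 2393 and 1294, against 15.6 and 82.7. EGFP was found in 52.5% of Malat1-poor and 52.8% of other hypertrophic cells of library 2, at levels of 4604 and 1581 CPM.

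Genes that followed Col10a1 from cell to cell within the class were ranked by Spearman's coefficient on UMIs per 10000, over 818 genes found in at least 50% of hypertrophic cells of each library. The coefficients describe 82 and 133 cells that share library, depth, and the same total, and they carry no test. Cpe, a carboxypeptidase that trims peptide hormones, came first (0.659 in library 1 and 0.631 in library 2), and Mgp followed (0.583 and 0.576). Next came Gpc1, Smoc2, Cd63, Gm42418, Acan, Ctsl, Spp1 (0.528 and 0.411), and Jam2. Lowest was H3f3b, a histone gene, at −0.468 and −0.570. Malat1 ranked 815 (−0.423 and −0.483) and Cdkn1a ranked 811 (−0.394 and −0.427), so the Cdkn1a share fell as the Col10a1 share rose within the class. The Col10a1 share itself had coefficients of −0.267 and −0.490 with UMIs per cell.

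Markers of other cells were summed in the class. B cell markers took 53.5 and 34.4 CPM, against 1500 and 3538 in other cells, with Ms4a1 at 0 in both libraries, and endothelial markers took 6.06 and 2.83, with Cdh5, Flt1, and Tie1 at 0 in both. Neutrophil markers took 488 and 43.9, led by S100a9, and monocyte, macrophage, and osteoclast markers took 58.5 and 65.1, with Mrc1 at 0 in both. Muscle markers took 29.3 and 155, with 84.2% of the latter in 3 cells. Tenocyte and fibroblast markers took 442 and 899, led by Fmod in library 1 and Dcn in library 2, and Lepr stromal markers took 4.04 and 21.2. Leaving out the cells with foreign markers left 67 and 120 hypertrophic cells and 9 non-hypertrophic chondrocytes in library 1. Spp1 then took 106259 and 51192 CPM in hypertrophic cells, against 184 and 4414, and Mmp13 took 3517 and 1315, against 59.3 and 113. Both genes kept their direction without those cells. Against other cells, Mmp13 was then no longer called (edgeR adjusted p = 0.147), and 159 genes were higher and 355 lower.

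The markers after which the study is named were read in the class as well. In its mouse clusters, the paper described both as selective for Prx1-positive stem cells and as not detectable in mature chondrocytes or osteoblasts. That statement rests on expression plots of clusters, whereas the values here are sums over cells chosen by Col10a1. Lrp1, an endocytic receptor of the LDL family, took 91.9 and 131 CPM in hypertrophic cells, 130 and 188 in non-hypertrophic chondrocytes, and 14.6 and 196 in other cells. A Lrp1 UMI was found in 37 of 82 and 84 of 133 hypertrophic cells (unthinned). Lrp1 passed neither comparison (edgeR adjusted p = 0.777 and 0.866). With foreign markers left out, library 1 turned, at 75.6 against 153 in other cells. Anpep, the gene of CD13, had no UMI in hypertrophic cells of either library, against 1.29 and 1.81 in non-hypertrophic chondrocytes and 0.870 and 30.2 in other cells, and Pdpn, podoplanin, had none either.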

How the data were processed

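The mouse libraries were the 2 samples analysed here, and the human samples were not used here. Per the submitters' processing notes, the authors made the files with Cell Ranger 6.1.2 and mm10, and the deposited values are raw counts of UMIs, neither normalized nor pooled. Total depth was 100808649 and 33306452 UMIs. Of 32288 features, the 3 reporters stayed out of library sizes and tests. Members, lists, and tests were chosen with earlier results of these data known, and some marker lists come from an earlier analysis of them. Named genes were list members, the 10 largest differences among calls, and the 10 genes most like Col10a1. Genes named from the ranking by ratio, and H3f3b, Malat1, and Cdkn1a at the low end of the Col10a1 ranking, were chosen after their values were seen. No doublet caller was run and doublets were not removed, but leaving out cells over 3 times the median UMIs, or with markers of other cells, was an alternative. Cells of a class were summed within each library, and sums were filtered with filterByExpr, scaled by TMM, and tested with edgeR 4.0.16 (quasi-likelihood, bias adjustment, Benjamini-Hochberg, threshold 0.05) in R 4.3.3, over 11503 genes with the 8 genes of the rule left out. DESeq2 1.42.0 was an alternative. With 2 libraries per class, p-values measure only the spread between these libraries. Same-numbered sums come from the same library, which pairs them, and their deviations from the class means correlated at 0.182, 0.304, and 0.268. The fits were tested on simulated data. Intervals are exact (Clopper-Pearson, Poisson) at 95%, and the floor of a count of 0 is 3 UMIs. Gene positions are from GENCODE M21 and promoters from RefSeq, both on GRCm38. Python 3.11.15 was used for the rest. A result among the transcription factors is not reported here.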

Additional observations from a re-analysis of the deposited data

Results flagged for a closer look

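These values lie in data that the comparisons did not use. The reporter EGFP had 4657 UMIs in hypertrophic cells of library 2 and none in library 1. tdTomato had 81 UMIs in hypertrophic cells of library 1 and 504 in library 2, in mice labelled WT. Outside the class, 6 kept cells of library 1 and 1 of library 2 had at least 20 UMIs of Col10a1 together with Ptprc. Below the cell filters, 14 barcodes of library 1 and 13 of library 2 had at least 20 UMIs of Col10a1 and no Ptprc, of which 10 and 12 had under 500 genes, and their summed Spp1 was 129080 and 106949 CPM. Sources of these signals were not tested.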

How the results depend on the processing

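The number of libraries limits every test, and library 1 held 26 non-hypertrophic cells. Against non-hypertrophic chondrocytes, the 1 higher call became 3 with no filter on low counts, 187 with DESeq2, 2 with cells carrying foreign markers left out, 2 with stromal cells only, and 0 with edgeR without bias adjustment, with library as a replicate block, with a Col10a1 minimum of 50, with equal weight per cell, and with Malat1-poor cells left out. With foreign markers left out, and with cells over 3 times the median UMIs left out (1 call), none of the calls was Tinagl1. Equal weight and Malat1 were added after seeing the data. The 0 lower calls became 122 with DESeq2. Against other cells, the 409 higher genes became 888 with DESeq2, 772 with the replicate block, 159 with foreign markers left out, 185 with stromal cells only, and 160 with equal weight per cell, which tested 3718 genes. The 409 lower became 855, 880, 355, 153, and 208 in turn. The replicate block kept all 818 calls and foreign markers left out kept 200. Over 41 named differences and 16 settings, 7 of 652 values reversed. Ihh against non-hypertrophic chondrocytes (0.38) became −0.37 with cells over 3 times the median UMIs left out, −0.19 with a Col10a1 minimum of 50, −0.45 with a Col10a1 share of 0.1%, −0.27 with equal weight, and −0.42 without replicate 2 (1.70 without replicate 1). Leaving out 1 replicate, Pth1r (−1.0) ranged from −1.58 to 0.011 and Mef2c (−0.62) from −1.02 to 0.064. The cause was not tested.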
